A study of Homo sapiens with 4 samples.

Results

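Metallothioneins were followed in single cells of the human embryonic stem cell line KhES1 and of blastoids made from it. The members are MT1E, MT1F, MT1G, MT1H, MT1X and MT2A, 6 of the 23364 genes listed in any table, and all 6 had a row in each of the 4 tables. They were selected on measured values of these samples, namely their share of UMIs (unique molecular identifiers, 1 per captured transcript), their spread between cells and their pairwise correlation in barcodes with at least 500 genes. Those values are therefore given as descriptions, with no test. The 2 hESC samples, hESC 1 and hESC 2, were KhES1 cells kept in mTeSR-1, a defined medium for primed pluripotent cells, on Matrigel. The 2 blastoid samples, blastoid 3 and blastoid 4, began as KhES1 cells aggregated in mTeSR-1 with 10 µM Y27632, added to limit death of dissociated cells, for 24 h. The aggregates were set in a thermoresponsive hydrogel under DMEM with 10% FBS for 3 days and then fed iBlastoid medium daily. The hESC cells had also met 10 µM Y27632 on the first day after passage. All 4 samples come from 1 line, and each was dissociated and run on 10x Genomics 3′ v3.1 chemistry. The sample titles give day 0 for all 4, whereas the names of the blastoid tables give day 9, and the groups here follow the culture descriptions.

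Metallothioneins are small, cysteine-rich cytosolic proteins that bind zinc, copper and cadmium in thiolate clusters. Their genes are classically induced when free zinc activates the transcription factor MTF1, which binds short metal response elements in their promoters, and several also respond to glucocorticoids and to oxidative stress. MT2A and the MT1 genes are expressed in many tissues, while MT3 and MT4 are known for brain and for stratified epithelium.

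The 6 genes lie together on chromosome 16 within 75613 bases (GRCh38, GENCODE 29 annotation). MT2A occupies chr16:56608584-56609497, MT1E chr16:56625781-56627112 and MT1F chr16:56657959-56659303. MT1G occupies chr16:56666730-56668065 on the minus strand, and the other 5 genes are on the plus strand. MT1H occupies chr16:56669814-56671129 and MT1X chr16:56682470-56684196. The start sites of MT1G and MT1H are 1749 bases apart and point away from each other. The span of MT1X overlaps that of the noncoding gene AC026461.1 on the same strand, and whether their exons overlap was not tested. Of 211 windows of 90 bases at the end of the MT1X transcript, 7 occurred in another gene. That gene was MT1G, not AC026461.1.

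Each gene has 3 exons and a coding sequence of 186 bases with its stop codon. The coding sequences are shown to show how alike the genes are, with the 20 cysteine codons among the 61 codons of each gene in capitals.

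MT2A: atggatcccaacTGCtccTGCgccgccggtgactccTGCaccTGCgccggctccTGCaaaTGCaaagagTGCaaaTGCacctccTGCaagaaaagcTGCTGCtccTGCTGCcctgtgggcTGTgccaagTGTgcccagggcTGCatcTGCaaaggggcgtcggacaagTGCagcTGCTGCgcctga

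MT1E: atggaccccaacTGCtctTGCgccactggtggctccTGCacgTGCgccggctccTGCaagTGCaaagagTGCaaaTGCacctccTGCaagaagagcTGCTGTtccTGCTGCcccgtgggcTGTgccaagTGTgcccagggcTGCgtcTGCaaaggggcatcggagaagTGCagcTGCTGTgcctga

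MT1F: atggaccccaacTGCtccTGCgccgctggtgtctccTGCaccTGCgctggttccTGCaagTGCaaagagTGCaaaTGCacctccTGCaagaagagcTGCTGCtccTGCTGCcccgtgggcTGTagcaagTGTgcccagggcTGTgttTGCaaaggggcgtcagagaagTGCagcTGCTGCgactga

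MT1G: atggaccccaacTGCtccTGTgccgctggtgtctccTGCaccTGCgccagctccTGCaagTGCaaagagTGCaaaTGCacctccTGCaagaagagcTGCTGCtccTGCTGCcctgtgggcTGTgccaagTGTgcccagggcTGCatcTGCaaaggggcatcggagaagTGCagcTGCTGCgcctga

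MT1H: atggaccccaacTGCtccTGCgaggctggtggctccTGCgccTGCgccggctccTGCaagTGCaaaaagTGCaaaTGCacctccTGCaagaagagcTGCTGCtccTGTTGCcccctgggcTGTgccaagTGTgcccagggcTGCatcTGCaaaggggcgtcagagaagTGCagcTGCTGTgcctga

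MT1X: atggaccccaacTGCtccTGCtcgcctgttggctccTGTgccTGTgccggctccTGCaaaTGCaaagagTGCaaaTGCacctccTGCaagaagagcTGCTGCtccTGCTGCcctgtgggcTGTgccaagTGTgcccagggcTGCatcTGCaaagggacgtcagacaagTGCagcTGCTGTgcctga

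The number of cysteine codons was the same in all 6 genes. Over the 15 pairs, identity of the coding sequences ranged from 88.7% to 95.2%, with a median of 92.5%. The last 300 bases of the transcripts, where 3′ reads fall, were 79.4% to 87.4% identical. Of the 211 windows of 90 bases in that stretch, none of MT1E, MT1F or MT2A occurred in another gene. In MT1G and in MT1X 7 windows were shared with each other, and in MT1H 20 windows were shared with the copy MT1HL1. How reads that match several genes were counted is not given in the sources used here, so part of the MT1G, MT1H and MT1X counts is uncertain.

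The promoter stretches are shown because metal response elements are the known binding sites of MTF1 in these genes. RefSeq promoter entries (GRCh38.p14) were matched for 3 members, MT2A, MT1H and MT1X; MT1E, MT1F and MT1G are named only. Capitals mark the core letters TGCACNC or TGCGCNC on either strand within the 250 bases before the start site. No match overlapped another.

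MT2A, chr16:56608334-56608583, plus strand: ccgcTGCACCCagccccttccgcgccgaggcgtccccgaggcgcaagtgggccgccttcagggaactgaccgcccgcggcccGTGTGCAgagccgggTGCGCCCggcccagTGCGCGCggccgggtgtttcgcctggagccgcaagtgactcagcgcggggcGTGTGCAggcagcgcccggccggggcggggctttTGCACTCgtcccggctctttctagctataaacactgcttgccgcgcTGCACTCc

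MT1H, chr16:56669564-56669813, plus strand: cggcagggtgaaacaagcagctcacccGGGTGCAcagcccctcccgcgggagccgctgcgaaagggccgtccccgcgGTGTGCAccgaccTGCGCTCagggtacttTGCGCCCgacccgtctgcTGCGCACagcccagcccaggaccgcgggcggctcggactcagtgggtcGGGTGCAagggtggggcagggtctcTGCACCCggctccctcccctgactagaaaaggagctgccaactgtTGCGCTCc

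MT1X, chr16:56682220-56682469, plus strand: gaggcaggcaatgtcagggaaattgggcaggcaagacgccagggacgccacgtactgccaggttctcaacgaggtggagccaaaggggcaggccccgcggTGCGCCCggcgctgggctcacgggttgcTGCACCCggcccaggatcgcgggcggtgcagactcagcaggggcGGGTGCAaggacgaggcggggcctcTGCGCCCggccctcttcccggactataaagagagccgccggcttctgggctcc

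The MT2A stretch held 7 matches, 5 on the forward and 2 on the reverse strand. The MT1H stretch held 8 and the MT1X stretch 4. Among 35116 promoters of the same length, 24.8% held at least 1 match, 0.0313% held as many as MT2A, 0.0171% as many as MT1H and 0.370% as many as MT1X. TATAAA on the forward strand was found in MT2A and MT1X, not in MT1H, and in 6.80% of all promoters.

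The tables held 5941 and 7575 barcodes for hESC 1 and hESC 2 and 3487 and 2071 for blastoid 3 and blastoid 4. After the minimum of 500 genes and removal of 73 predicted doublets, 9607 cells remained, 2238, 3175, 2278 and 1916 in that order, with 13255214 to 17679447 UMIs a sample. Barcodes were shared within groups, 1317 between the hESC tables and 1035 between the blastoid tables. Of the shared barcodes, 23 were kept in both hESC samples and 0 in both blastoid samples, and 1310 kept cells of hESC 2 and 1010 of blastoid 4 carried one. Clusters formed without metallothionein genes were named from fixed markers: 2078 and 2911 hESC cells were pluripotent-like. In blastoid 3 and blastoid 4, 1760 and 1172 cells were mesoderm/mesenchyme-like, 432 and 638 trophectoderm/amnion-like, and 84 and 104 pluripotent-like. No cluster of the main clustering showed a hypoblast/endoderm marker in at least 10% of its cells, so no hypoblast-like class was named. At Leiden resolution 1.0, a cluster of 5 and 13 cells in blastoid 3 and blastoid 4 showed 2 such markers beside 9 endothelium markers. Cells too rare to form a cluster could not be seen this way. Nothing in the labels says that replicates came from separate cultures, so errors and p-values reach no further than these samples. The SE of a fold change is taken from a fit that pools variation over all genes. It can be smaller than a gene's own spread between samples.

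All 6 members stood lower in both blastoid samples than in both hESC samples. Levels are CPM, the UMIs of a gene scaled to a common UMI total per sample, and fold changes are from an edgeR fit with TMM scaling. MT2A, the main inducible human form in many tissues, was at 245 and 186 CPM in the hESC samples and at 75.6 and 62.1 CPM in the blastoid samples. Its log2 fold change, blastoid minus hESC, was -1.78 ± 0.18 (SE, n = 2 per group). Every hESC value of MT2A lay above every blastoid value.

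Among the MT1 genes, MT1X, an isoform expressed in many tissues, was at 282 and 179 CPM in hESC 1 and hESC 2 and at 41.2 and 49.9 CPM in blastoid 3 and blastoid 4, a log2 difference of -2.47 ± 0.25 (SE, n = 2 per group). MT1E was at 98.4 and 71.0 CPM against 30.5 and 23.6 CPM, a difference of -1.79 ± 0.20 (SE, n = 2 per group). MT1F was at 41.2 and 28.6 CPM against 8.80 and 12.4 CPM, a difference of -1.83 ± 0.26 (SE, n = 2 per group). For these 3 genes the groups did not overlap, and hESC 1 was the highest sample of each.

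The neighbours MT1G and MT1H had the largest differences of the 6 members. MT1G was at 211 and 166 CPM in the hESC samples and at 4.04 and 6.79 CPM in the blastoid samples, a log2 difference of -5.23 ± 0.29 (SE, n = 2 per group). MT1H was at 120 and 117 CPM against 0.993 and 1.75 CPM, a difference of -6.52 ± 0.24 (SE, n = 2 per group). In the blastoids these levels rest on few molecules, 61 and 120 UMIs of MT1G and 15 and 31 of MT1H. For background, 22.8% of the 16332 genes tested over all kept cells were called lower in the blastoid samples and 27.1% higher. These are shares called by edgeR, and the share of all genes without overlap between the groups is not given here. The members were chosen with this contrast known, so nothing is read from their direction or from the lack of overlap.

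**Figure D1:**
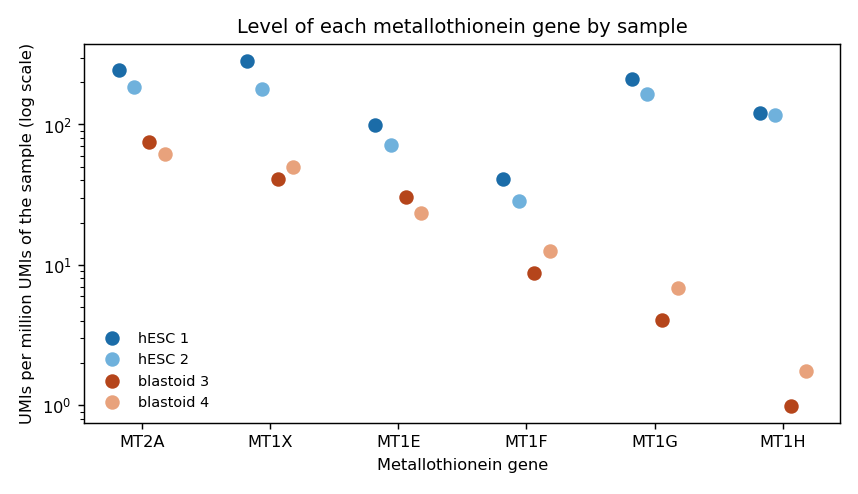
Level of each of the 6 metallothionein genes, in CPM on a log scale; each point is 1 sample. For every gene both hESC points lie above both blastoid points, by the widest gap for MT1H (120 and 117 against 0.993 and 1.75).

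Summed over the 6 genes, metallothioneins made up 997 and 747 CPM in the hESC samples and 161 and 157 CPM in the blastoid samples. The mean was 872 ± 177 CPM in hESC and 159 ± 3.14 CPM in blastoids (SD, n = 2), a ratio of 5.49. With shared barcodes left out the sums were 993 and 934 CPM against 161 and 142 CPM. In hESC 2 the cells with a shared barcode were deeper, with a median of 7522 UMIs against 1801, and their summed level was 661 against 934 CPM.

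The makeup of the pool differed too. MT1G supplied 21.7% ± 0.766 of metallothionein UMIs in hESC and 3.42% ± 1.29 in blastoids (SD, n = 2). MT1H supplied 13.9% ± 2.62 against 0.868% ± 0.356 (SD, n = 2). MT2A made up 24.7% ± 0.206 in hESC and 43.3% ± 5.15 in blastoids (SD, n = 2), and MT1E 9.68% ± 0.255 against 16.98% ± 2.72 (SD, n = 2). MT1X held 26.1% ± 3.12 and 28.7% ± 4.47 (SD, n = 2), a difference within the spread between samples.

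The levels were unevenly held by cells. At least 1 metallothionein UMI was found in 67.4% of 2238 cells of hESC 1 and 57.0% of 3175 cells of hESC 2. In blastoid 3 and blastoid 4 it was found in 39.2% and 47.8% of cells, which were deeper than the hESC cells (medians of 6207 and 8798 UMIs against 5769 and 4996). No cell class here is known to lack these genes, so no level of free RNA could be set beside these shares. The top 10% of cells held 66.9% of metallothionein UMIs in each hESC sample, and 63.4% and 61.5% in the blastoid samples. The highest single cell carried 462 metallothionein UMIs in hESC 1, 292 in hESC 2, 40 in blastoid 3 and 66 in blastoid 4.

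To compare spread at 1 depth, 2000 UMIs were drawn at random from every cell, leaving out 435, 973, 107 and 42 shallower cells of hESC 1, hESC 2, blastoid 3 and blastoid 4. At least 1 member UMI was then found in 49.9% and 42.2% of the hESC cells and in 19.1% and 20.5% of the blastoid cells. The Fano factor (variance over mean, near 1 for pure counting) of the summed count was 19.8 and 18.1 in the hESC samples and 2.38 and 2.41 in the blastoid samples. The summed mean was also lower in the blastoids, 0.311 and 0.315 thinned UMIs a cell against 2.15 and 1.61, and the part of the level in the smaller Fano factor was not tested.

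Among genes with a mean of at least 0.1 thinned UMIs, MT1X had the highest Fano factor in both hESC samples, 7.75 of 2776 genes in hESC 1 and 7.01 of 2904 genes in hESC 2. MT1G came next with 6.93 and 6.65, and MT2A after it with 5.07 and 5.36. The median gene stood at 1.02 in both samples, and the 99th percentile at 1.50 and 1.42. Of the 6 members, 5 were thus among the 9 most uneven genes of each hESC sample.

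The remaining members ranked lower or could not be ranked. MT1E had 4.13 and 3.56 (ranks 5 and 9) and MT1H 3.11 and 4.27 (ranks 9 and 6) in hESC 1 and hESC 2. MT1F, with a mean below 0.1, had 1.36 and 1.05. In the blastoids MT2A alone passed the minimum mean, with 2.03 (rank 71 of 3333) and 1.75 (rank 90 of 3105). It lay below the 99th percentile of those samples, 2.87 and 2.64.

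**Figure D2:**
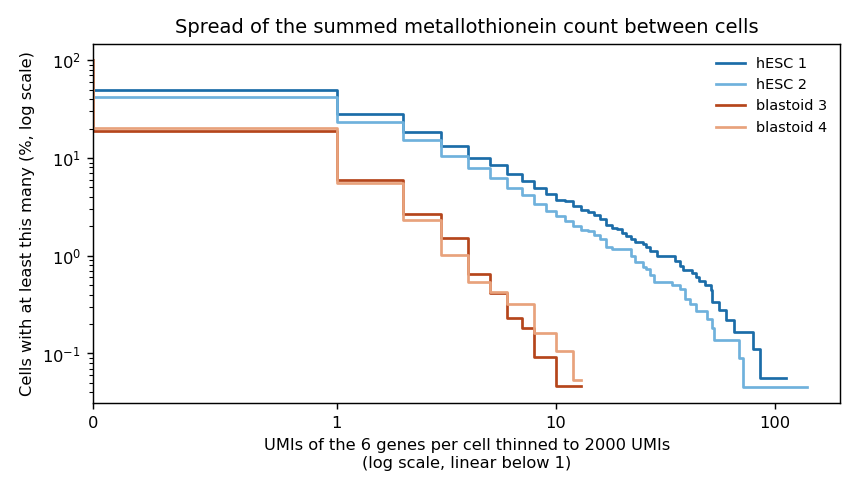
Percent of cells (log scale) with at least a given number of summed metallothionein UMIs after thinning to 2000 UMIs a cell; each line is 1 sample. The hESC lines reach past 100 UMIs in single cells while both blastoid lines end at 13.

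Metallothionein counts varied together from cell to cell in the hESC samples. Over the 15 pairs, Pearson r of log1p thinned counts had a median of 0.448 across 1803 cells of hESC 1 (range 0.253 to 0.607) and 0.405 across 2202 cells of hESC 2 (0.195 to 0.556). For all pairs of genes with a mean of at least 0.1, the median was near 0 and the 99th percentile 0.059 and 0.053. The cells of a sample share a library and here a depth, and reads that match more than 1 member could add to r. From the shallowest to the deepest tertile by depth before thinning, the summed thinned level was 1236, 1014 and 973 CPM in hESC 1. In hESC 2 it was 1093, 689 and 627 CPM, so the shallowest tertile had the highest level in both samples. Across cells, the log1p summed count barely followed log depth, with r of -0.034 in hESC 1 and -0.017 in hESC 2. The part of depth in r between members was not tested beyond the tertiles.

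MT1G and MT1H, the divergent neighbours, formed the closest pair, with r of 0.607 and 0.556. They were also the most alike of the 15 pairs in the last 300 bases of their transcripts (87.4%), with an exact shared stretch of 60 bases, and the part of shared reads in r was not tested. MT1F was in the weaker pairs, from 0.253 to 0.330 in hESC 1 and from 0.195 to 0.240 in hESC 2. At least 4 of the 6 genes were detected together in 118 cells of hESC 1 (6.54%) and 116 cells of hESC 2 (5.27%), and in 1 and 4 cells of blastoid 3 and blastoid 4.

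In blastoid cells the median r was 0.053 across 2171 cells and 0.097 across 1874 cells, at lower counts. The highest pair was MT1E with MT2A in blastoid 3 (0.284) and MT1G with MT1H in blastoid 4 (0.324). The latter rests on few cells, since in thinned blastoid 4 MT1G was detected in 0.640% of cells and MT1H in 0.320%. Within the mesoderm/mesenchyme-like cells the median was 0.0072 over 15 pairs in blastoid 3. In blastoid 4 it was -0.0059 over the 10 pairs that could be computed. Within the 62 and 100 pluripotent-like cells deep enough the median was 0.200 and 0.216. Within trophectoderm/amnion-like cells it was 0.086 and 0.210, over the 10 pairs that could be computed. Within depth tertiles of the hESC samples it ran from 0.273 to 0.506.

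**Figure D3:**
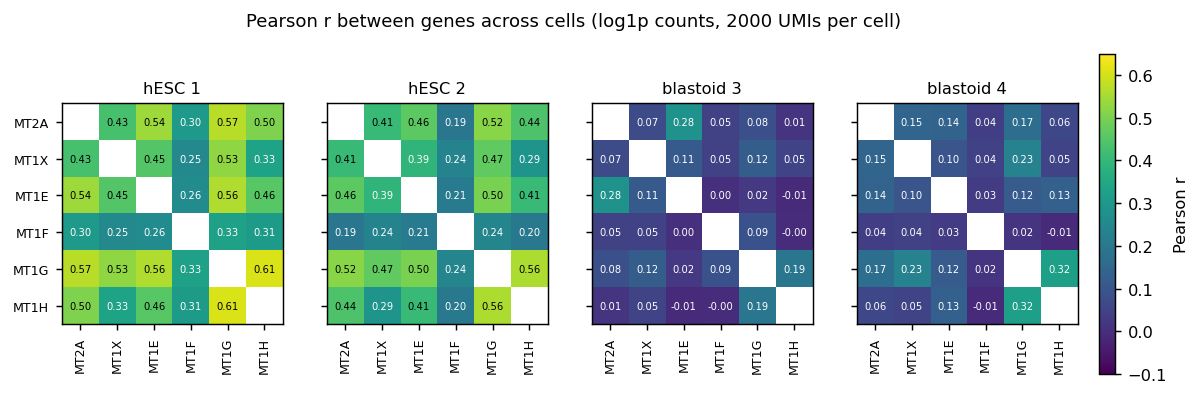
Pearson r between each pair of metallothionein genes across the cells of each sample, on log1p counts thinned to 2000 UMIs a cell; colour and printed values give r. Values are higher in both hESC panels (medians 0.448 and 0.405) than in the blastoid panels (0.053 and 0.097).

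Blastoid cell classes differed in which members they held; the classes come from the same cells, so no test is given. The summed level was 161 and 148 CPM in mesoderm/mesenchyme-like cells of blastoid 3 and blastoid 4, 110 and 95.6 CPM in trophectoderm/amnion-like cells and 396 and 510 CPM in the few pluripotent-like cells. The last values were 194 and 398 CPM when clustered with 15 principal components, which put 245 and 144 cells in that class. MT1F stood at 15.0 and 16.3 CPM in trophectoderm/amnion-like cells and at 4.86 and 5.18 CPM in mesoderm/mesenchyme-like cells. MT1X had the opposite order, 16.7 and 20.7 CPM against 42.5 and 49.9 CPM. For both genes the classes did not overlap between the samples. The share of all genes without such overlap is not given here, so nothing is read from it.

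Within the mesoderm/mesenchyme-like class, 1 cluster led by the matrix and secreted genes CXCL14, POSTN and DCN stood apart (321 and 116 cells, median depth 5947 and 8110 UMIs). Its summed level was 425 and 490 CPM, against 105 and 113 CPM in the largest cluster of the class, led by PRRX1. MT1E was at 121 and 153 CPM there, above its level in either whole hESC sample, and at 15.6 and 14.1 CPM in the PRRX1 cluster. MT2A was at 240 and 253 CPM against 45.2 and 45.6 CPM. MT1G was at 1.43 and 1.01 CPM against 1.04 and 1.93 CPM, and MT1H at 0.476 and 0 CPM against 0.130 and 0 CPM, so neither stood apart there.

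The difference was also seen in the share of cells. At 2000 UMIs a cell, MT2A was detected in 25.7% and 29.3% of cells of the CXCL14 cluster and in 6.95% and 8.34% of the PRRX1 cluster. Without thinning the shares were 50.2% and 50.9% against 17.9% and 25.7%. For MT1E the thinned shares were 18.5% and 19.8% against 2.46% and 2.71%. The top 10% of cells held 51.8% and 40.4% of the cluster's thinned metallothionein UMIs.

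Pluripotent-like cells held most MT1G molecules of both blastoid samples and most MT1H molecules of blastoid 4. They had 34 of 61 MT1G UMIs in blastoid 3 and 85 of 120 in blastoid 4, although they were 84 of 2278 and 104 of 1916 cells. Of MT1H they had 4 of 15 and 28 of 31 UMIs, the latter in 11 cells, and the top 5 cells of blastoid 4 carried 74.2% of its MT1H UMIs. In mesoderm/mesenchyme-like cells of blastoid 4 MT1H had 0 UMIs, which allows up to 0.293 CPM at 3 counts.

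**Figure D4:**
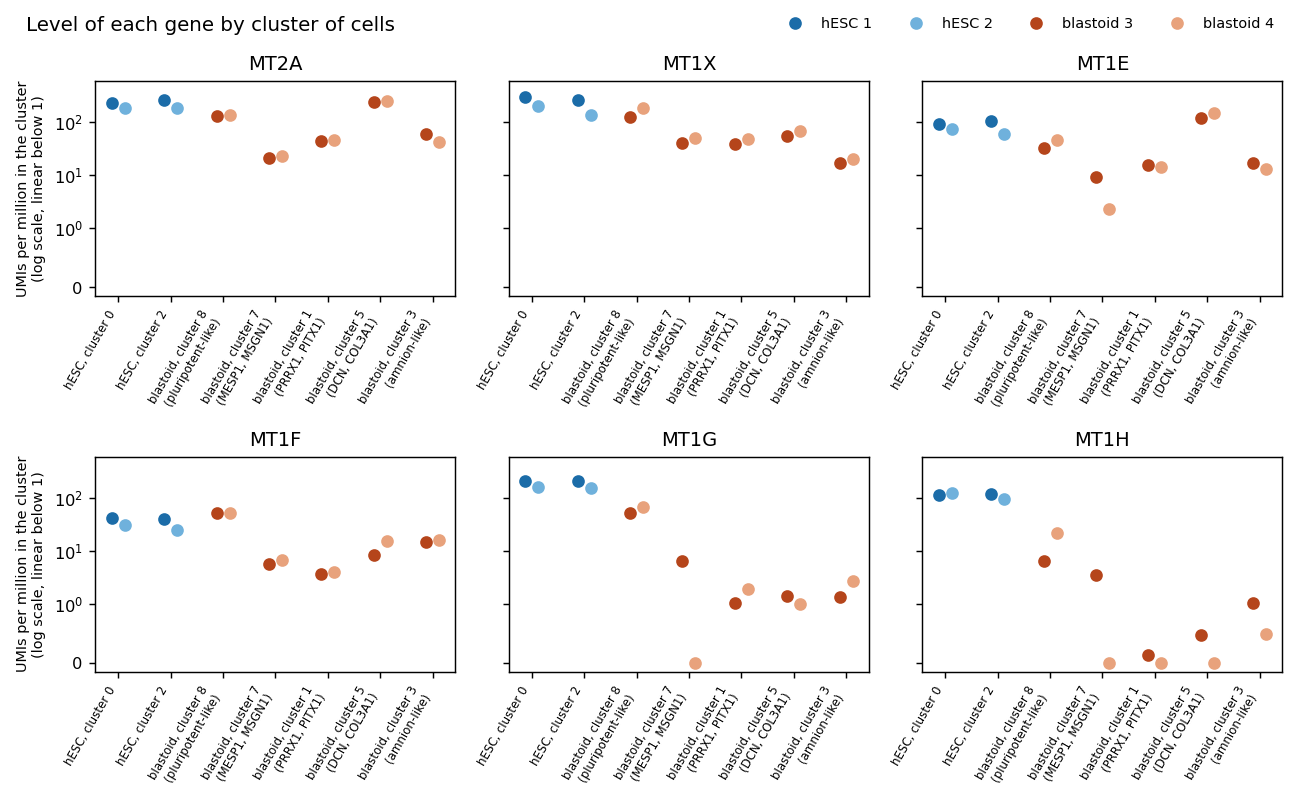
Level of each gene in clusters of cells, in CPM within the cluster (log scale, linear below 1); each point is 1 sample. In the DCN and COL3A1 cluster MT2A (240 and 253) and MT1E (121 and 153) reach hESC levels while MT1G (1.43 and 1.01) stays low.

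Among pluripotent-like cells alone, the members lay closer together between the groups, and whether the groups overlapped in MT1F and MT1X depended on the clustering. In the hESC samples this class was held by 3 clusters, whereas in the blastoids 63 of 84 and 100 of 104 cells came from a separate cluster led by HPGD and TMPRSS11E. MT1G was at 205 and 165 CPM in hESC and at 52.8 and 65.6 CPM in blastoid pluripotent-like cells, a log2 difference of -1.68 ± 0.19 (SE, n = 2 per group). MT1H was at 116 and 117 CPM against 6.21 and 21.6 CPM, a difference of -2.90 ± 0.27 (SE, n = 2 per group). Without blastoid 4 the MT1H difference was -4.41 and without blastoid 3 it was -2.45, both further from -2.90 than the SE. The MT1G and MT1H differences were both smaller than over all kept cells.

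MT1F was at 41.1 and 28.6 CPM in hESC against 51.2 and 51.7 CPM in blastoids, a log2 difference of 0.50 ± 0.23 (SE, n = 2 per group). At Leiden resolution 0.3 MT1F was at 51.2 and 50.3 CPM in blastoids, and at resolution 1.0 at 45.1 and 50.5 CPM, above both hESC samples. With 15 principal components in place of 30, the class took in the MESP1 cluster. There MT1F was at 41.2 and 28.6 CPM against 21.2 and 38.2 CPM, so the groups overlapped and the order of the means turned. MT1X was at 279 and 179 CPM against 129 and 188 CPM, which overlap. With 15 components it was at 282 and 179 CPM against 68.5 and 149 CPM, which do not. MT2A was at 242 and 184 CPM against 126 and 137 CPM, and MT1E at 97.2 and 70.7 CPM against 31.05 and 46.3 CPM. In this comparison 10.3% of the 14126 genes tested were called lower and 11.6% higher.

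In the hESC samples 1 cluster stayed unnamed, with 160 and 264 cells and a median of 1134 and 1122 UMIs. The cluster showed 11 pluripotent markers in at least 10% of its cells, but was shallow and no marker was among its leading genes. Its summed metallothionein level was 2088 and 879 CPM, with 79.8% and 60.4% held by its top 10% of cells. Below the minimum of 500 genes the level was similar to that of kept cells in the hESC samples. In the bin of 100 gene counts just under the minimum the level was 876 and 728 CPM, and in the bin just above it 741 and 961 CPM. In the blastoids the same bins had 288 and 517 CPM against 203 and 300 CPM, from at most 20 metallothionein UMIs.

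The genes whose counts followed the metallothionein sum most closely differed between the groups, and all correlations were weak. Across hESC cells, of 4673 genes outside the family the 10 highest were LDHA, IGFBP2, PGK1, BNIP3, FAM162A, ENO1, P4HA1, TPI1, PKM and MIF. Of these LDHA, PGK1, ENO1, TPI1 and PKM encode enzymes of glycolysis. LDHA had r of 0.172 and 0.177 and MIF 0.130 and 0.093. MT1M, a member of the family, had 0.207 and 0.154. The percent of mitochondrial UMIs ran the other way, with r of -0.193 and -0.219.

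Across blastoid cells, of 5190 genes the highest included CXCL14, COL3A1, PDPN, DCN, LUM, VCAN, ADAMTS9, POSTN and COL4A2. CXCL14 had r of 0.191 and 0.175, and COL4A2 0.095 and 0.096. CXCL14, COL3A1, DCN and POSTN also lead the cluster with high MT1E and MT2A, so these values describe that cluster again.

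Of the 4 other metallothionein genes with counts, MT1M alone was tested and it was lower in the blastoids. It had 85 and 83 UMIs in the hESC samples and 1 and 2 in the blastoid samples, a ratio of 68.6 with an exact counting interval of 23.1 to 336 (edgeR adjusted p 6.59e-05). MT1A had 4 and 5 against 4 and 3 UMIs. MT3 had 8 and 5 against 0 and 0, and the copy MT1HL1 2 and 2 against 0 and 0.

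Genes that sense or move metals went in both directions. MTF1, the zinc-sensing activator of metallothionein genes, was at 4.98 and 7.23 CPM in hESC and at 12.2 and 11.6 CPM in blastoids, higher by 0.83 ± 0.21 on the log2 scale (edgeR adjusted p 0.0156, n = 2 per group). Without hESC 1 its adjusted p was 0.146. SLC30A1, a zinc exporter that MTF1 also induces, was at 22.2 and 12.1 CPM against 20.5 and 19.5 CPM, a log2 difference of 0.09 ± 0.27 (edgeR adjusted p 0.800). Of 8 genes tested of the sensor and zinc exporter list, 2 were called higher, near the 27.1% of all genes, and 0 lower.

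The second was the exporter SLC30A4, not listed in the hESC tables and at 1.65 and 1.70 CPM in blastoids, at least 7.48-fold higher against a floor of 3 counts per hESC sample. Of 12 zinc importers, 2 rose, 3 fell and 7 did not pass, beside 27.1% of all genes called higher and 22.8% lower. SLC39A2, an importer, was also not listed in the hESC tables and at 55.1 and 69.1 CPM in blastoids, at least 279-fold higher. SLC39A14, an importer of zinc, manganese and iron, fell from 70.8 and 66.4 CPM to 29.7 and 20.8 CPM (edgeR adjusted p 0.000349). The median log2 difference was 0.05 over the importers and 0.06 over the sensor and exporters, and 0.05 over all genes tested.

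Copper genes went both ways, with 5 of 12 called higher and 4 lower, beside 27.1% of all genes called higher and 22.8% lower. ATP7B, the copper-exporting ATPase, rose from 1.43 and 1.51 CPM to 37.7 and 23.4 CPM. COX11, a copper chaperone of cytochrome oxidase, fell by a log2 of 0.80 (edgeR adjusted p 0.00721, and 0.0741 without hESC 1). Of 10 iron genes 3 rose and 2 fell, near the shares of all genes. SLC40A1, the iron exporter ferroportin, rose from 0.151 and 0.126 CPM to 70.9 and 48.4 CPM, and the ferrireductase STEAP3 fell from 6.87 and 7.98 CPM to 2.71 and 3.90 CPM.

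Of 13 NRF2 and glutathione genes, 8 fell, 0 rose and 5 did not pass, with a median of -0.56, beside 22.8% of all genes called lower. Fewer genes of this list, as of all genes, passed without hESC 1 or without hESC 2. The list's median was -0.50 without hESC 1 and -0.51 without hESC 2. It was -0.40 without blastoid 3 and -0.67 without blastoid 4. SLC7A11, the cystine importer, fell from 35.7 and 22.8 CPM to 6.49 and 4.86 CPM (edgeR adjusted p 0.000318). Of 10 heat shock genes 5 rose and 1 fell, beside 27.1% of all genes called higher and 22.8% lower. The co-chaperone BAG3 rose from 10.03 and 10.997 CPM to 38.5 and 30.9 CPM, and HSP90AB1 fell by a log2 of 0.77, a call lost without hESC 1 or without hESC 2 (edgeR adjusted p 0.0556 and 0.101). Of 10 glucocorticoid response genes 5 rose and 0 fell, beside the same shares of all genes. ZBTB16, which rose, went from 0.151 and 0.314 CPM to 9.53 and 5.15 CPM.

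Over all 8 lists 41 of 76 genes tested were called, beside 49.9% of all genes. Fewer were called without hESC 1 or without hESC 2, as over all genes. The number called in the NRF2 and glutathione list and in the copper list changed with the sample left out. Among pluripotent-like cells the NRF2 list had 1 of 13 called higher and 0 lower, beside 21.9% of all genes, and the sensor and exporter list had 0 of 7 called.

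**Figure D5:**
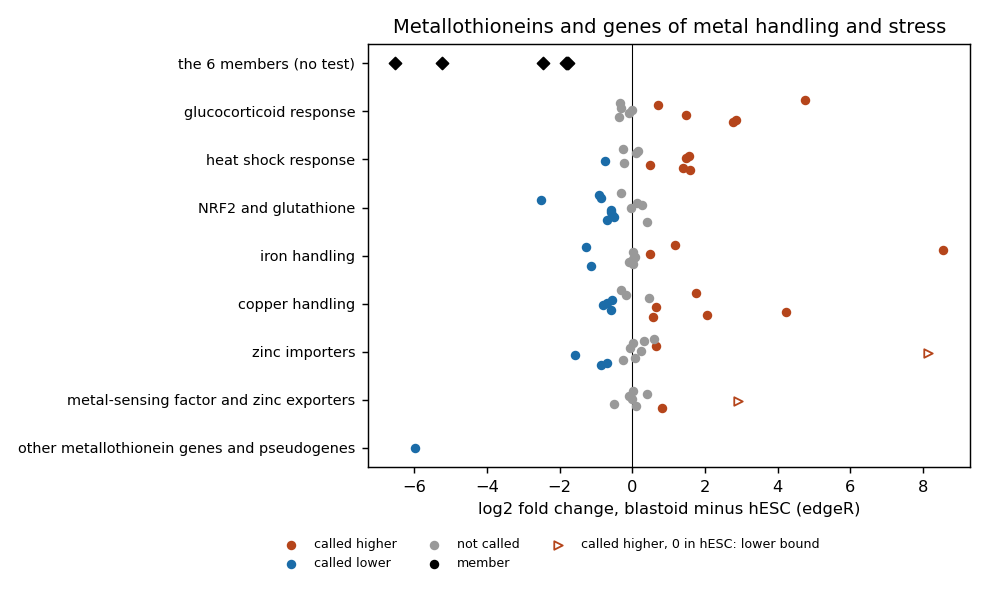
Log2 fold change, blastoid minus hESC, of each tested gene of 8 lists (circles, coloured by edgeR call) and of the 6 metallothioneins (diamonds, no test); open triangles are lower bounds for genes at 0 in hESC. The diamonds lie from -6.52 to -1.78, beside lists that lie on both sides of 0.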

How the data were processed

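Each sample is 1 deposited table of whole UMI counts per gene and barcode. Per the submitters' processing notes the authors used Cell Ranger and GRCh38; versions, annotation and filters are not given in the sources used here. The deposited counts hold no barcode under 201 genes, none above 4994 genes and none above 20% mitochondrial UMIs. Barcodes with at least 500 genes were kept and Scrublet doublets removed (scanpy 1.11.5), 27, 0, 11 and 35 in the 4 samples, 0.75% in all; a caller that marks so few may have missed doublets. Clusters used 2000 variable genes without metallothioneins, 30 components and Leiden 0.5. Each was named after the marker set with the most markers seen in at least 10% of its cells, at least 3. A cluster stayed unnamed on a tie, or if another set had more markers among its 10 leading genes. It also stayed unnamed if it was much shallower than its samples and none of those genes was a marker of its set.

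Counts were summed per sample and tested with edgeR 4.0.16 (quasi-likelihood, TMM, filterByExpr, Benjamini-Hochberg adjusted p under 0.05), and DESeq2 1.42.0 was an alternative. The edgeR fit was tested on simulated data in which all genes had the same spread beyond counting and few genes changed. Its error rates in a setting like these data were not tested. Counting intervals are exact at 95% and cover counting error only. The members and lists were chosen with earlier results of these data known. The text names the 6 members, the other metallothioneins with counts, MTF1, SLC30A1, the called gene with the largest rise and fall of each list, and the 10 genes most like the member sum among those in at least 5% of cells of both samples; 1 gene of the blastoid list is not reported here. No unlisted gene was imputed: a gene missing from a table counts as 0.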

Additional observations from a re-analysis of the deposited data

How the results depend on the processing

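The direction of all 6 members over all kept cells was the same under every alternative run. No paired analysis was possible because the hESC samples are numbered 1 and 2 and the blastoid samples 3 and 4. Shared barcodes left out moved MT1H to -7.29 on the log2 scale. The summed ratio of 5.49 and the median member difference of -2.15 moved by less than the spread between samples. Genes called fell from 8157 to 4896 without hESC 1 and 5114 without hESC 2 (highest 10157), and among pluripotent-like cells from 3094 to 1282 and 1604 (highest 3434) and to 1903 with DESeq2; with 1 sample left in a group, that sample is assumed to vary like the other group. List calls ranged from 23 to 49 when 1 sample was left out. Library size alone in place of TMM moved the median of all genes from 0.05 to 0.18.

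The mean Fano factor of the sum in hESC, 18.9, was 9.35 at 1000 and 31.1 at 4000 UMIs a cell, 20.2 with another seed and 22.5 with shared barcodes left out. In blastoids, 2.40 became 1.78, 4.09, 2.49 and 2.44 in that order, 2.24 with doublets kept, 2.24 with all barcodes and 2.44 with at least 1000 genes. The mean of median r in hESC, 0.427, was 0.330 at 1000 UMIs, 0.257 as Spearman, 0.368 unthinned, 0.485 in the shallowest and 0.330 in the deepest tertile. In blastoids, 0.075 became 0.124 at 4000 UMIs, 0.112 with another seed, 0.164 unthinned, 0.208 within pluripotent-like, 0.00066 within mesoderm/mesenchyme-like and 0.148 within trophectoderm/amnion-like cells. The pluripotent-like level in blastoids, 453 CPM, was 296 CPM with 15 components, where the class took in the MESP1 cluster. The cause of these shifts was not tested. In blastoids MT1H rests on 15 and 31 UMIs, so depth limits its level and its correlations.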
